A study of Mus musculus with 26 samples.

Results

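The genes that cut the extracellular matrix, and those that hold the cutting enzymes in check, were measured in 26 subcutaneous Panc02 tumors. The genes were taken by their symbols: the matrix metalloproteinases (Mmp), the tissue inhibitors of metalloproteinases (Timp) and the ADAMTS proteases. Of 46 such genes in the mouse RefSeq annotation, 43 had a named probe set among 19505 genes tested: 21 Mmp, 4 Timp and 18 Adamts genes. Mmp15, Mmp27 and Adamts2 had none and are not analysed here. The rule used symbols and no values, though earlier results of these data were known when it was set. Each of the 43 was read by a single probe set.

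Panc02 is a mouse pancreatic ductal adenocarcinoma line grown in immunocompetent male C57BL/6 mice, here under the skin and not in the pancreas. The question was whether β-hydroxy-β-methylbutyrate, called HMB and formed in the body from leucine, alters the tumor and its answer to anti-PD1, which blocks the checkpoint receptor PD1 of T cells. By the titles, 6 tumors were control (AIN-93G diet), 7 came from mice on the same diet with HMB, 6 from mice given anti-PD1 on the AIN-93G diet, and 7 from mice given anti-PD1 + HMB. All mice were injected with the line, 200000 cells per the labels, where the methods give another number. HMB began 1 week before the injection and anti-PD1 was given at 200 µg every 3 days once tumors were established. Per the methods, the mice not given anti-PD1 received an isotype control antibody, and the mice were young adults when obtained. The series note on the design gives other group sizes than the titles do. The groups below follow the titles.

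A matrix metalloproteinase is a zinc enzyme made as an inactive proenzyme. Its propeptide must be cut off, by plasmin, by furin or by another metalloproteinase, before it digests collagens, laminins or proteoglycans. TIMPs block the active enzymes by binding them, so a level of RNA is not a level of activity. ADAMTS enzymes are secreted relatives with thrombospondin repeats that process procollagens, cut proteoglycans such as versican and aggrecan, or cut von Willebrand factor. In pancreatic ductal adenocarcinoma, which forms a dense collagen stroma, much of this machinery is known to be made by fibroblasts and by infiltrating myeloid cells.

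Each tumor gave 1 array of total RNA, and values are on a log2 scale. Array medians ran from 6.965 to 7.106, and the lowest correlation between any 2 arrays over all probe sets was 0.934. Marker lists were scored as the mean of centered log2 values. Epithelial genes (Krt8, Krt18, Krt19, Epcam, Krt7) were measured in all tumors, with 2 of the 5 above the 95th percentile of the negative-control probe sets in every tumor and none below it in all. The skeletal muscle score ran from -2.23 to 7.43, highest in HMB 5. Tumor 7 of the anti-PD1 + HMB group stood apart, with a B cell score of 8.88, a T cell score of 3.81 and an adipocyte score of 6.01, the highest of all 26 in each. Control tumor 4 and anti-PD1 + HMB tumor 3 stood apart in the other direction for fibroblast genes, at -3.98 and -3.15. In such bulk RNA, fewer cells of a type and less RNA per cell cannot be told apart.

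On mouse chromosome 9, 9 of the secreted Mmp genes measured here lie close together, among them the collagenase Mmp13, the stromelysins Mmp3 and Mmp10, the macrophage elastase Mmp12 and the matrilysin Mmp7. RefSeq promoter windows, from 250 bases before to 50 bases after a start (assembly GRCm38.p6), were given for 29 of the 43 genes. The letters TGAGTCA, or TGACTCA read from the other strand, are the best-known site of AP-1, the Fos and Jun factor that answers growth factors and inflammation. They occurred in 7 of the 29 genes, and all 7 belong to the 9 neighbors on chromosome 9. The other 20 genes with a window, the 4 Timp and 9 Adamts genes among them, held no such letters there. Mmp12 and Mmp7 each had 2 windows, 1 with the letters and 1 without. Over the table, 5.2% of 32851 windows held them, and 5.95% of 27025 genes had a window that did. The stretches are printed because they are what these 7 neighboring genes share in sequence, 60 bases 5′ to 3′ on each gene's own strand with the AP-1 letters in capitals.
Mmp13, chr9:7272452-7272511, plus strand: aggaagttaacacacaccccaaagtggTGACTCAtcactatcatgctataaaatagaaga
Mmp12, chr9:7347303-7347362, plus strand: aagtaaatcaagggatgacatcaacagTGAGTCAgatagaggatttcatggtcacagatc
Mmp1b, chr9:7388087-7388146, minus strand: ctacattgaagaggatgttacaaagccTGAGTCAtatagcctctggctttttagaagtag
Mmp3, chr9:7445749-7445808, plus strand: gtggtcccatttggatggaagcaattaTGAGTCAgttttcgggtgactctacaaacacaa
Mmp1a, chr9:7464041-7464100, plus strand: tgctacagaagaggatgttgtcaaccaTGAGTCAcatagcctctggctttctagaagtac
Mmp10, chr9:7502252-7502311, plus strand: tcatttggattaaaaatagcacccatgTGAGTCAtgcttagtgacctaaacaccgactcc
Mmp7, chr9:7692000-7692059, plus strand: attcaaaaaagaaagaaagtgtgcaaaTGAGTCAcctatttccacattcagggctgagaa

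The letters began 35 bases before the start in Mmp13, 44 in Mmp12, 46 in Mmp3, 63 in Mmp10 and Mmp7, 73 in Mmp1a and 93 in Mmp1b. Mmp8, the neutrophil collagenase, and Mmp20, the enamel protease, are in the same stretch of chromosome 9 and lacked them. Over the 36 pairs of these 9 genes the median correlation across 26 tumors was 0.008, with a range from -0.539 to 0.529. Mmp1a, Mmp1b, Mmp7, Mmp8, Mmp10 and Mmp20 were below the median of the negative-control probe sets in all 26 tumors. Pairs with these dim genes cannot show whether the neighbors moved together. Between the brighter genes, Mmp3 and Mmp13 stood at -0.032, Mmp12 and Mmp3 at 0.274, and Mmp12 and Mmp13 at 0.236. A match of letters is a description of the window and not a site that was seen to be bound.

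Few of the genes were bright. Mmp14 and Timp2 were above the 95th percentile of the negative-control probe sets (10.914 to 11.277 by array) in every tumor, which is 4.7% of the 43 genes against 14.5% of all genes tested. Adamts6 and Timp1 were above it in 25 tumors, Mmp2 in 21, Mmp3 in 13, Mmp12 in 8, Mmp13 in 6, Adamts12 in 2, and Mmp19 and Timp3 in 1. The other 32 were above it in no tumor. Of these, 20 were below the negative-control median in every tumor, 46.5% of the genes against 43.3% of all genes tested. Among those 20 were Adamts13, Adamts14, Adamts16, Adamts17, Adamts18 and Adamts20, so their differences below are between dim signals.

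The spread between tumors was wide, and little of it followed the groups. The median range over 26 tumors was 2.376 log2 units for the 43 genes and 1.572 for all genes tested. The share of variance that lay between the 4 groups had a median of 11.11% for the 43 genes and 11.49% for all genes, and reached 32.61% in Mmp25. Mmp2 had the widest range at 7.92 log2 units, followed by Mmp3 (6.43), Mmp19 (6.04) and Mmp23 (5.87). Timp2 (1.93), Mmp14 (2.38) and Timp1 (2.81) held narrower ranges.

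**Figure D1:**
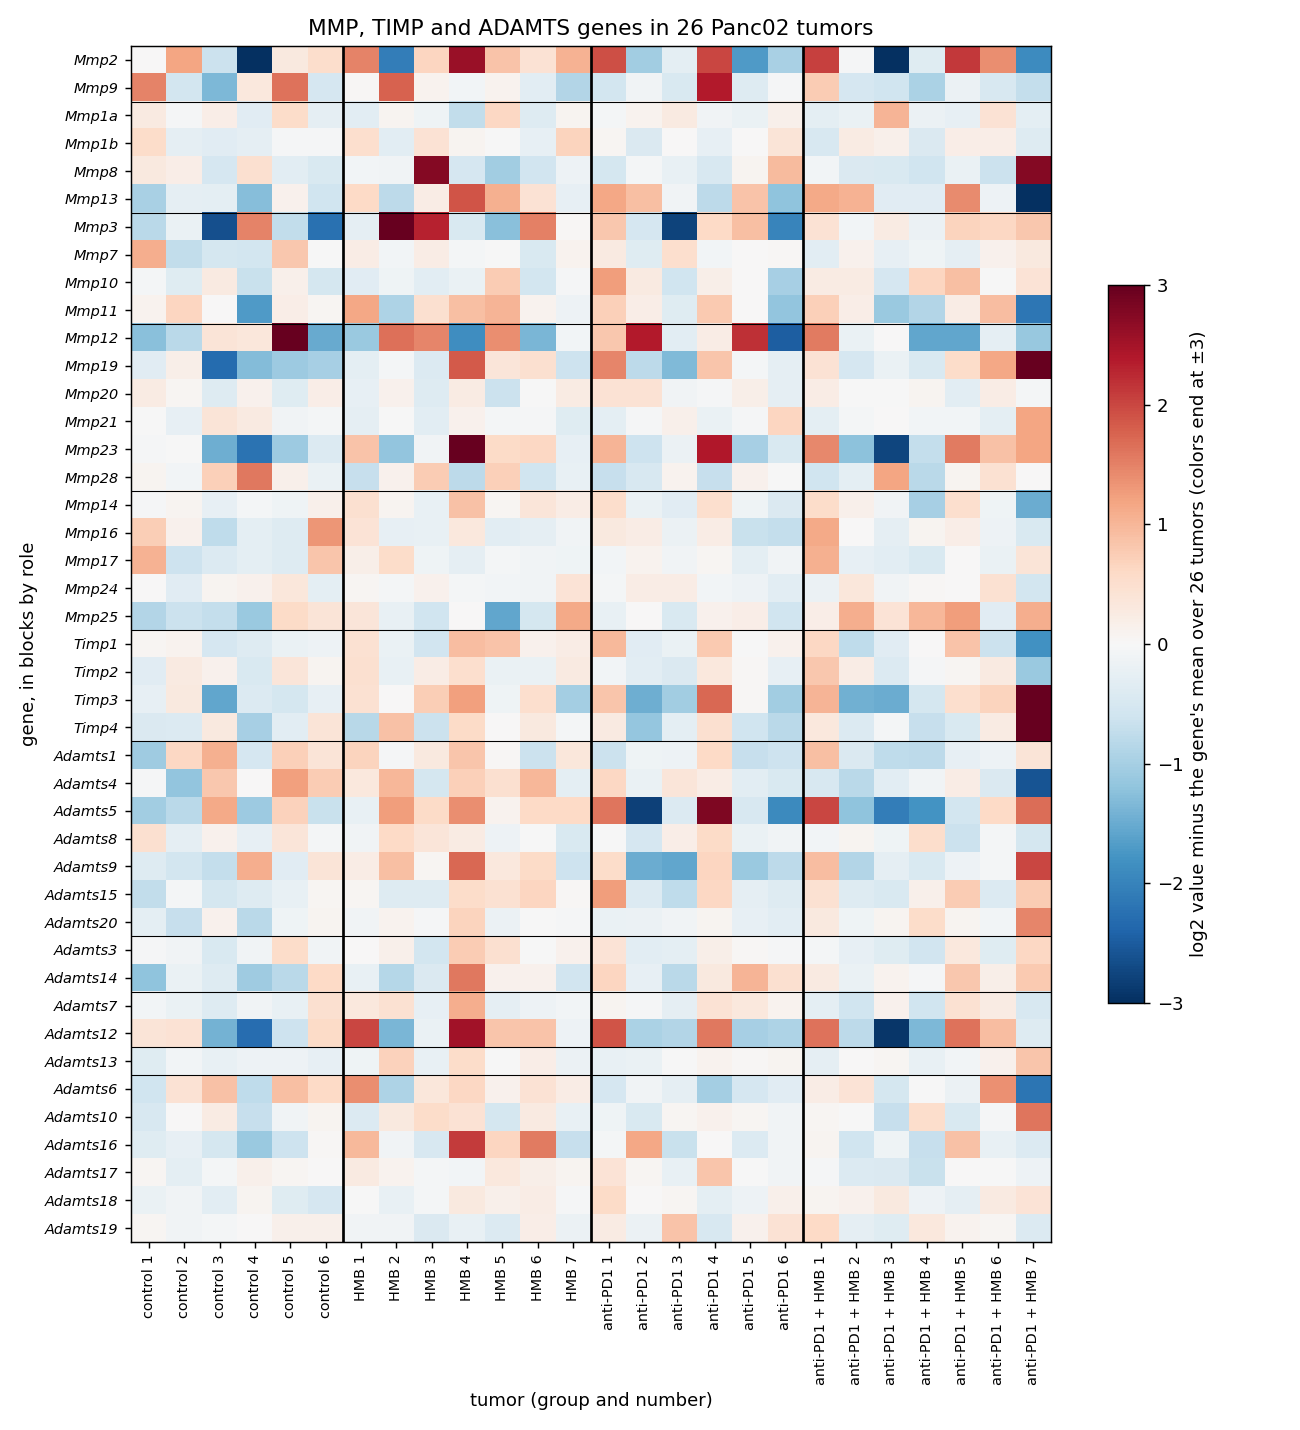
Log2 value of each of the 43 genes (rows, in blocks by role) in each of 26 tumors (columns, by group), minus the gene's mean over all tumors. Most of the color lies in single tumors, such as Mmp2 in control 4 and anti-PD1 + HMB 3 and Timp3 and Timp4 in anti-PD1 + HMB 7, and not in whole groups.

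Mmp2, gelatinase A, cuts denatured collagen and basement membrane collagen. Its values in control ran from 7.05 to 13.56 with a median of 12.51. They ran from 10.30 to 14.97 (median 13.22) with HMB, from 10.68 to 14.38 (median 11.74) with anti-PD1, and from 8.13 to 14.48 (median 12.34) with anti-PD1 + HMB. The groups overlapped over most of their range, and the lowest values were in the 2 tumors lowest in fibroblast genes. Means were 11.71 ± 2.36 (SD, n = 6), 13.08 ± 1.42 (n = 7), 12.36 ± 1.60 (n = 6) and 12.24 ± 2.32 (n = 7), and without tumor 4 the control mean was 12.64 ± 0.68 (n = 5).

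Mmp2 followed the fibroblast genes closely. Across 26 tumors its Pearson correlation with the score of Col1a1, Col1a2, Col3a1, Dcn, Lum, Fap and Thy1 was 0.979 (Spearman 0.962; permutation p = 1e-05, the smallest that 100000 resamples can give; adjusted p = 4.5e-05 over 9 correlations tested). Within the groups it was 0.992 in control, 0.979 in HMB, 0.992 in anti-PD1 and 0.967 in anti-PD1 + HMB, so the relation held inside each. Without control 4 and anti-PD1 + HMB 3 it was 0.957. Of 19498 genes outside the list, none had a higher correlation with it than Mmp2. The mean fibroblast score was -0.56 in control, 0.64 in HMB, -0.05 in anti-PD1 and -0.12 in anti-PD1 + HMB. The control mean was 0.12 without tumor 4 and the anti-PD1 + HMB mean was 0.38 without tumor 3. The part of the score in any difference of Mmp2 between groups was not tested.

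Further genes went with the same score, and these were singled out after their values were seen. Adamts12, which in humans binds and cuts the cartilage protein COMP, correlated with it at 0.89, Mmp23 at 0.82 and Mmp11 (stromelysin-3, activated inside the cell by furin) at 0.78. With Mmp2 they made 4 of 43 genes over 0.7, which is 9.3%, against 1.06% of all genes tested. Among the 903 pairs of the 43 genes, where the median correlation was 0.072, Adamts12 with Mmp23 was the highest at 0.909, and Adamts12 with Mmp2 stood at 0.888. Mmp28, epilysin, went the other way at -0.657, but without the 2 tumors lowest in fibroblast genes this was -0.284.

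Mmp14, the membrane-bound MT1-MMP, activates pro-Mmp2 at the cell surface in a complex that Timp2 bridges. Its values lay between 14.09 and 14.51 in control, 14.12 and 15.23 in HMB, 13.91 and 14.87 in anti-PD1, and 12.85 and 14.89 in anti-PD1 + HMB. The lowest was tumor 7 of the last group, and control and HMB overlapped. Timp2 was nearly level, with means of 15.76 ± 0.33, 15.87 ± 0.32, 15.63 ± 0.28 and 15.72 ± 0.61 in the same order (SD; n = 6, 7, 6 and 7).

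The 3 genes of this complex varied together across tumors. Mmp2 and Mmp14 correlated at 0.525 (Spearman 0.71; permutation p = 0.0077, adjusted p = 0.013), and at 0.596 without anti-PD1 + HMB 4 and 7. Mmp2 and Timp2 correlated at 0.661 (Spearman 0.742; permutation p = 0.00026, adjusted p = 0.00078), and at 0.673 without the 2 farthest tumors. Mmp14 and Timp2 correlated at 0.657 (Spearman 0.521; permutation p = 0.00047, adjusted p = 0.0011), but at 0.408 without anti-PD1 + HMB 1 and 7. By group this last value was -0.002 in control, 0.503 in HMB, 0.733 in anti-PD1 and 0.783 in anti-PD1 + HMB, so it did not hold in control. Mmp2 with Mmp14 by group gave 0.281, 0.59, 0.889 and 0.512, and Mmp2 with Timp2 gave 0.723, 0.726, 0.517 and 0.711. Mmp14 followed the fibroblast score less tightly than Mmp2 did by value, at 0.441 (Spearman 0.66; permutation p = 0.028, adjusted p = 0.036) and at 0.668 without control 4 and anti-PD1 + HMB 3. By group that was 0.189, 0.595, 0.934 and 0.323. Timp2 stood at 0.595 with the same score over all tumors (Spearman 0.703), a value picked after it was seen. The part of the score in the correlations between these genes was not tested.

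**Figure D2:**
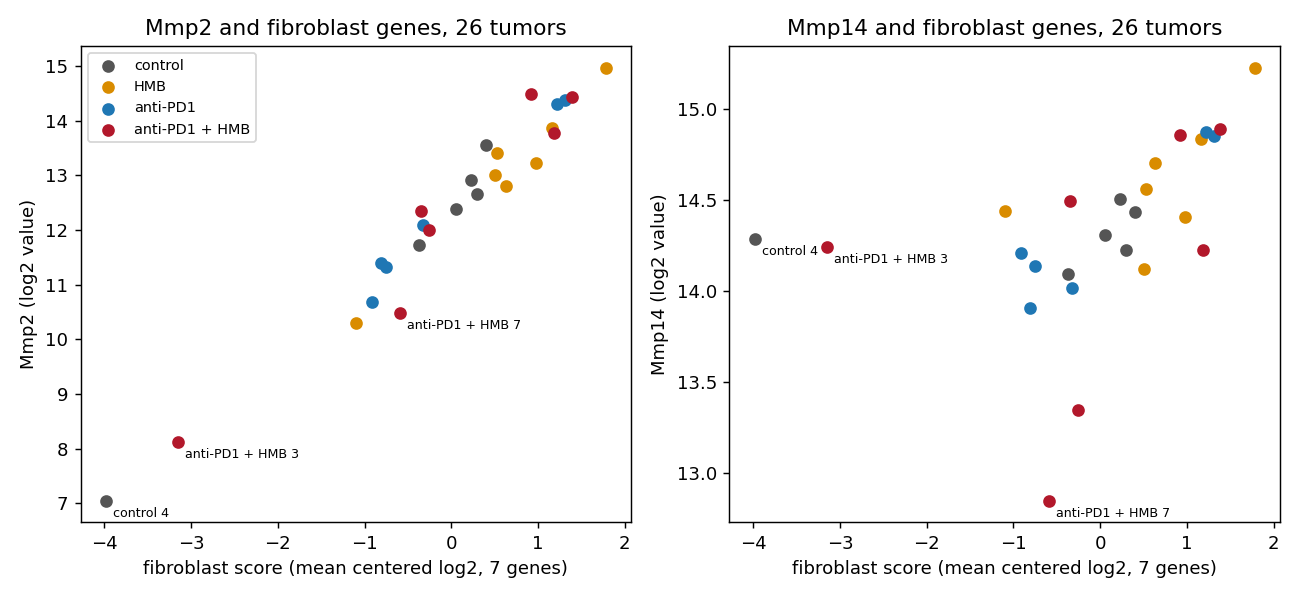
Log2 value of Mmp2 (left) and Mmp14 (right) against the fibroblast score (mean centered log2 value of 7 genes) in 26 tumors, colored by group. Mmp2 lies along a line from control 4 at 7.05 up to 14.97, while Mmp14 spans a narrow range with anti-PD1 + HMB 7 lowest at 12.85.

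Mmp9, gelatinase B, is stored in the granules of neutrophils. It was dim, from 4.32 to 7.30 in control (median 5.58), 4.79 to 7.46 in HMB (median 5.70), 5.13 to 8.07 in anti-PD1 (median 5.43) and 4.73 to 6.44 in anti-PD1 + HMB (median 5.18). Single tumors, HMB 2 and anti-PD1 4, were high within otherwise level groups. Mmp9 correlated with the score of S100a8, S100a9, Csf3r, Cxcr2 and Retnlg at 0.503 (Spearman 0.5; permutation p = 0.0084, adjusted p = 0.013), and at 0.417 without control 4 and 5. By group the values were 0.77, 0.574, 0.524 and 0.183. Across the 26 tumors the gelatinases Mmp2 and Mmp9 correlated at 0.081.

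Mmp3, stromelysin-1, cuts proteoglycans, laminin and fibronectin and activates other proenzymes. Its values ran from 8.26 to 12.39 in control (median 10.11), 9.64 to 14.54 in HMB (median 10.94), 8.11 to 11.79 in anti-PD1 (median 10.95) and 10.72 to 11.70 in anti-PD1 + HMB (median 11.31). The 7 anti-PD1 + HMB tumors lay within 0.99 log2 units of each other (SD 0.38), against SDs of 1.49, 1.75 and 1.57 in control, HMB and anti-PD1. HMB tumors 2 and 3 were the highest of all. That difference in spread was not tested.

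Mmp13, collagenase-3, cuts fibrillar collagen. Its values ran from 8.85 to 10.26 in control, 9.35 to 12.03 in HMB, 8.92 to 11.30 in anti-PD1 and 6.59 to 11.56 in anti-PD1 + HMB, where tumor 7 was lowest and the next was 9.78. Without that tumor the anti-PD1 + HMB mean was 10.60 ± 0.82 (SD, n = 6) in place of 10.03 ± 1.69 (n = 7). Across tumors Mmp13 correlated with Mmp14 at 0.703, and at 0.507 without tumor 7. The other collagenase genes were dim. Mmp8 ran from 2.25 to 4.25 in 24 tumors but was 6.06 in HMB 3 and 6.04 in anti-PD1 + HMB 7, and Mmp1a and Mmp1b, the mouse counterparts of human MMP1, stayed below 4.

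Mmp12, the macrophage elastase, varied as widely inside groups as between them. It ran from 9.10 to 13.69 in control, 8.75 to 12.27 in HMB, 8.14 to 12.99 in anti-PD1 and 9.05 to 12.18 in anti-PD1 + HMB, with medians of 10.38, 10.53, 11.13 and 10.34. Control 5 was the highest tumor. Its correlation with the macrophage score (Adgre1, Csf1r, Mrc1, Cd14, Cd163, Lyz2) was 0.201 (Spearman 0.272; permutation p = 0.32, adjusted p = 0.36), and 0.237 without HMB 4 and 5, so no relation was detectable over these tumors. By group it was 0.109, 0.284, 0.003 and 0.694. The mean macrophage score ranged only from -0.0438 to 0.0384 between groups.

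Timp1, an inhibitor that acts on most secreted Mmp enzymes, had values from 11.38 to 11.98 in control, 11.30 to 12.81 in HMB, 11.53 to 12.86 in anti-PD1 and 10.05 to 12.73 in anti-PD1 + HMB. The control tumors sat within 0.60 log2 units. HMB and anti-PD1 + HMB tumors reached both above and below that range, while the anti-PD1 tumors reached above it and not below it. Timp3, the inhibitor that binds to the matrix and also blocks ADAMTS enzymes, ran from 6.60 to 8.44, 7.14 to 9.39, 6.68 to 9.87 and 6.66 to 11.33 in the same order. Timp4 was dim except in a single tumor: 3.11 to 4.49 in control, 3.27 to 4.99 in HMB, 2.93 to 4.59 in anti-PD1, and 3.41 to 4.43 in 6 anti-PD1 + HMB tumors against 8.53 in tumor 7.

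Timp4 went with the fat genes, though it was below the negative-control median in 25 of the 26 tumors. Its correlation with the score of Adipoq, Plin1, Lep, Cidec, Fabp4 and Pparg was 0.753 (Spearman 0.687; permutation p = 1e-05, adjusted p = 4.5e-05). Without HMB 2 and anti-PD1 + HMB 7 it was 0.683, and by group it was 0.327, 0.791, 0.915 and 0.894. With the skeletal muscle score it was -0.142 (Spearman -0.013; permutation p = 0.45, adjusted p = 0.45; -0.112 without HMB 5 and anti-PD1 + HMB 4), and 0.166, -0.229, -0.372 and -0.445 by group. Timp3 went with the same fat score at 0.801, and at 0.725 without tumor 7, a value picked after it was seen. The link of Timp4 was not to fat genes alone. With the B cell score Timp4 stood at 0.857 (Spearman 0.401), and at 0.531 without tumor 7, also picked after it was seen. Between the inhibitors, Timp3 with Timp4 stood at 0.664 and Timp1 with Timp2 at 0.512, while Timp1 with Timp3 stood at 0.051, Timp2 with Timp3 at 0.001, Timp2 with Timp4 at -0.381 and Timp1 with Timp4 at -0.398. Without tumor 7 all 6 pairs were positive, at 0.396, 0.263, 0.595, 0.502, 0.277 and 0.269 in the same order.

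Tumor 7 of the anti-PD1 + HMB group was the highest of 26 in 8 of the 43 genes and the lowest in another 8. It was highest in Timp3 (11.33), Timp4 (8.53), Mmp19 (12.82), Mmp21, Adamts9, Adamts10, Adamts13 and Adamts20. It was lowest in Timp1 (10.05), Timp2 (14.62), Mmp11, Mmp13 (6.59), Mmp14 (12.85), Mmp24, Adamts4 (5.67) and Adamts6. Its B cell, T cell and adipocyte scores are given above, and their part in these values was not tested. HMB tumor 4, with the highest fibroblast score at 1.79, was the highest of 26 in 9 genes: Mmp2, Mmp13, Mmp14, Mmp23, Adamts3, Adamts7, Adamts12, Adamts14 and Adamts16. How often either tumor was the highest or lowest over all genes was not counted. Whether these counts are particular to the 43 genes is therefore not known.

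**Figure D3:**
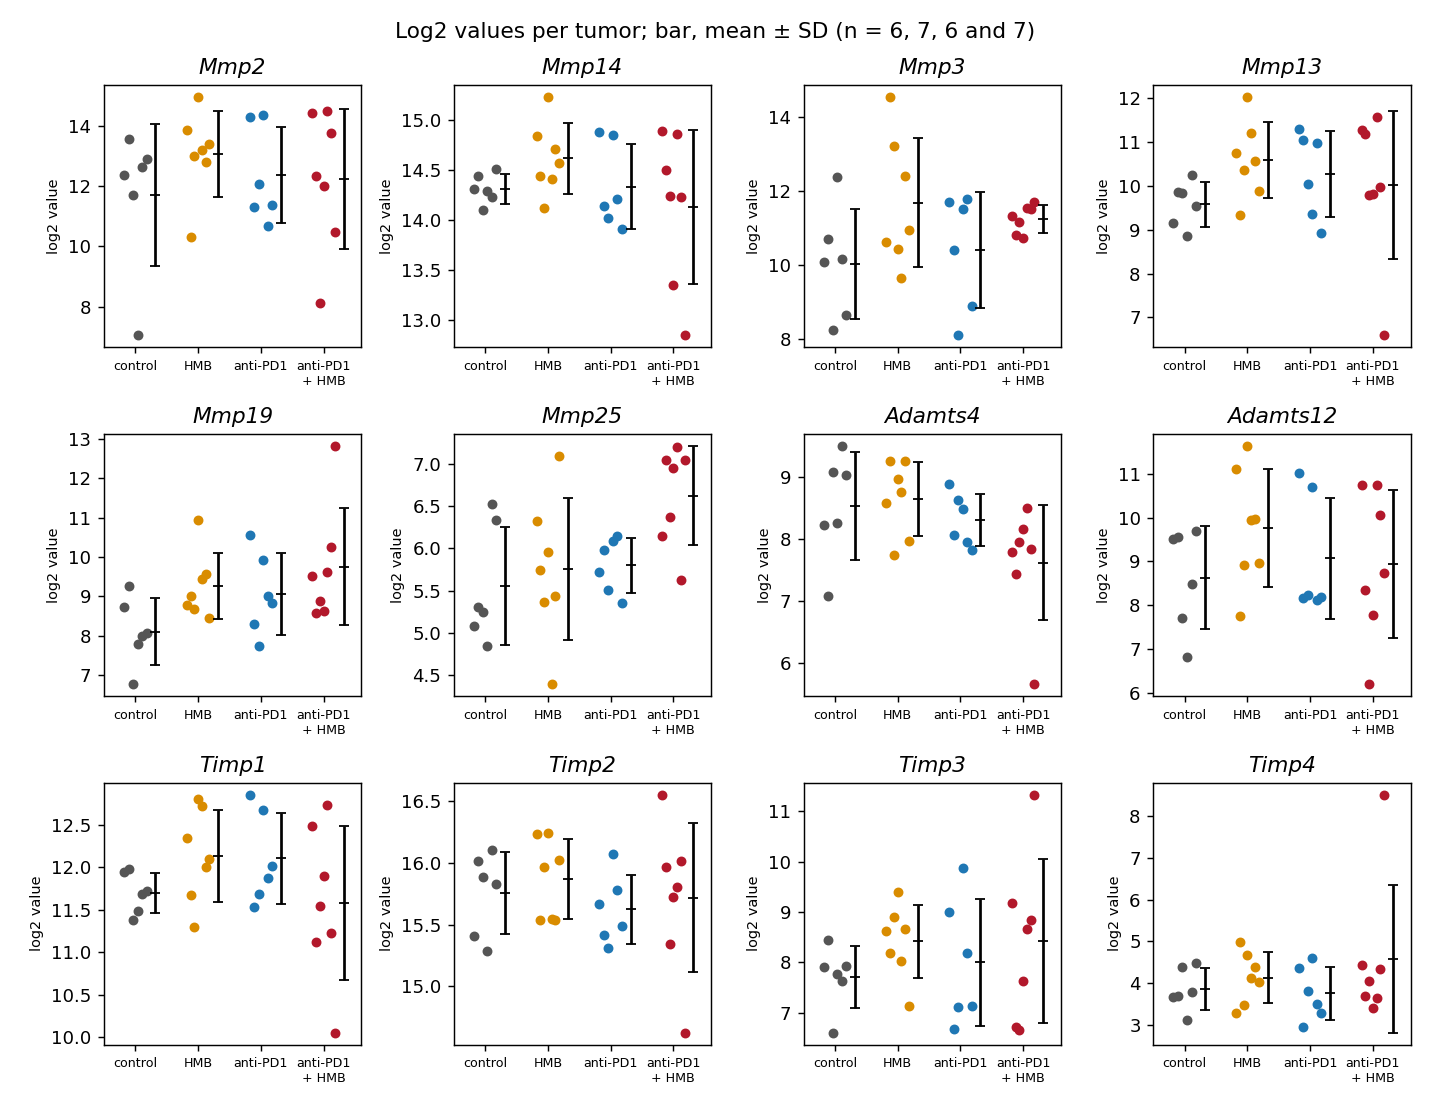
Log2 values of 12 genes in each tumor by group (points), with the group mean ± SD as a black bar (n = 6, 7, 6 and 7). The groups overlap in every panel, and anti-PD1 + HMB 7 is the point apart in Mmp13, Mmp19, Adamts4, Timp3 and Timp4.

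The proteoglycan-cutting ADAMTS genes differed in how far they spread. Adamts5, an aggrecanase, ran from 5.70 to 7.92 in control, 6.57 to 8.20 in HMB, 3.98 to 9.59 in anti-PD1 and 4.72 to 8.79 in anti-PD1 + HMB, so anti-PD1 tumors held both its extremes. Adamts1, which cuts versican and aggrecan, had means of 10.16 ± 0.82, 10.17 ± 0.50, 9.69 ± 0.50 and 9.80 ± 0.62. Adamts4, the other classical aggrecanase, ran from 7.07 to 9.50 in control, 7.74 to 9.25 in HMB, 7.81 to 8.88 in anti-PD1 and 5.67 to 8.49 in anti-PD1 + HMB, with medians of 8.65, 8.75, 8.27 and 7.83. No anti-PD1 + HMB tumor reached the control or HMB median. Adamts12 ran from 6.83 to 9.69, 7.76 to 11.64, 8.11 to 11.01 and 6.20 to 10.75, and the 2 high anti-PD1 tumors, 1 and 4, were also the 2 highest of that group in Mmp2.

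The first comparison asked what HMB alone did. No gene of the 43, and none of 19505 tested (0%), passed an adjusted p of 0.05 in the limma fit. The methods' t-test called 0 of the 43 after the same adjustment in this and the other 4 pairwise comparisons. At an unadjusted p under 0.05 in limma there were 2, both higher with HMB, which is 4.65% of the 43 against 6.93% of all genes tested (3.14% higher and 3.79% lower). They were Adamts16, a secreted protease, with a log2 difference of 1.04 ± 0.37 (SE; limma adjusted p = 0.686), and Mmp3 with 1.65 ± 0.72 (limma adjusted p = 0.686). Adamts16 was dim throughout, from 2.74 to 3.89 in control and 3.17 to 5.94 in HMB. Without HMB 2, the Mmp3 difference was 1.17. The next by p were Mmp19 (1.16), Adamts13 (0.33), which cuts von Willebrand factor, Mmp23 (1.39) and Adamts18 (0.28), with 95% intervals that reached 0.

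The sign of the differences was uneven between families. With HMB, 33 of the 43 differences were positive (76.7%, against 47.5% of all genes), made up of 17 of 18 Adamts, 4 of 4 Timp and 12 of 21 Mmp genes. Without control 4 the count was 30. The median difference was 0.21 log2 units, against -0.015 over all genes. These genes are correlated across tumors, so the count is given with no test. Adamts3, Adamts8 and Adamts13 to Adamts20 were below the negative-control median in every tumor, so their signs are those of dim signals. Mmp2 differed by 1.37 (95% interval -0.72 to 3.46), but by 0.44 without control 4. Mmp13 differed by 1.01 (-0.20 to 2.21), Mmp14 by 0.30 (-0.24 to 0.84, and 0.20 without HMB 4), Timp1 by 0.44 (-0.24 to 1.11), Timp3 by 0.71 (-0.52 to 1.93) and Adamts5 by 0.92 (-0.61 to 2.44). Mmp9, Mmp12 and Adamts1 differed by -0.06, -0.02 and 0.01, with signs that turned when single tumors were left out. No gene had groups that did not overlap, against 0.179% of all genes. The count of 2 became 1 without control 3 or HMB 6, 4 without control 1, control 2, HMB 1 or anti-PD1 1, 5 without HMB 7, and 6 without anti-PD1 + HMB 7. Under those settings the share of all genes ran from 6.03% (without HMB 1) to 8.21% (without anti-PD1 + HMB 7).

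Anti-PD1 alone against control gave a similar count. No gene of the 43 and none of all genes (0%) passed an adjusted p of 0.05 in limma, and 1 of the 43 (2.33%) had an unadjusted p under 0.05, against 6% of all genes (2.41% higher, 3.59% lower). This was Adamts14, a procollagen N-proteinase, at 0.74 ± 0.35 (SE; limma adjusted p = 0.831), from a control range of 4.04 to 5.84 to an anti-PD1 range of 4.45 to 6.27. The next by p were Adamts18 (0.29, and 0.19 without anti-PD1 1), Mmp28 (-0.65, and -0.41 without control 4), Adamts6 (-0.70), Mmp19 (0.95) and Mmp23 (1.07, and 0.63 without anti-PD1 4). Mmp2 differed by 0.65 (95% interval -1.52 to 2.82), a sign that turned without control 4, to -0.28. Mmp14 differed by 0.02 (-0.54 to 0.58) and Timp1 by 0.41 (-0.29 to 1.11, and 0.26 without anti-PD1 1). Positive differences numbered 30 of 43 (69.8%, against 49.2% of all genes), but 25 without control 4 (against 49.1%). No gene had groups that did not overlap, against 0.41% of all genes. The count of 1 became 0 without control 3, control 5, anti-PD1 1 or anti-PD1 6, and 2 without control 2, 4 or 6 or anti-PD1 + HMB 3 or 7. Under those settings the share of all genes ran from 4.63% (without anti-PD1 1) to 6.95% (without anti-PD1 + HMB 7).

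The combined treatment against control had 6 of 43 genes (14%) at an unadjusted p under 0.05, against 8.13% of all genes (3.42% higher, 4.71% lower). None passed an adjusted p of 0.05 in limma, and none of all genes did (0%). Of the 6, 5 were higher and 1 was lower. Mmp25, a membrane-anchored enzyme known from human neutrophils, ran from 4.84 to 6.53 in control and 5.62 to 7.20 in anti-PD1 + HMB, a difference of 1.07 ± 0.34 (SE; limma adjusted p = 0.534). In 4 of the 7 combined-treatment tumors Mmp25 lay at 6.95 or above, over the highest control tumor, and in the other 3 it lay within the control range. Mmp25 was dim, below the negative-control median in 24 of the 26 tumors. Across tumors it correlated at -0.203 with the neutrophil score and at 0.604 with the T cell score. Without tumor 7 of the combined group these were -0.343 and 0.554. They were picked after they were seen and not tested.

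Mmp19, a secreted enzyme of basement membrane components, differed by 1.65 ± 0.57 (limma adjusted p = 0.535). Control values ran from 6.78 to 9.26 and anti-PD1 + HMB values from 8.57 to 12.82, and without tumor 7 the difference was 1.14. Adamts4 was lower by value, at -0.91 ± 0.39 (limma adjusted p = 0.579), and at -0.58 without tumor 7. The rest were Adamts20 (0.61, and 0.42 without tumor 7), Adamts18 (0.34) and Adamts14 (0.79), all 3 below the negative-control median in every tumor. Mmp3 differed by 1.22 (95% interval -0.27 to 2.70). Mmp2 differed by 0.52 (-1.57 to 2.62), and by -0.41 without control 4. Mmp14 differed by -0.18 (-0.72 to 0.36), Timp1 by -0.12 (-0.79 to 0.56) and Timp4 by 0.73 (-0.41 to 1.86), and without tumor 7 these were 0.03, 0.14 and 0.07. Positive differences numbered 24 of 43 (55.8%, against 46.9% of all genes). They numbered 20 without control 4 (against 47%) and 27 without tumor 7 (against 48.6%). No gene had groups that did not overlap, against 0.2% of all genes. Mmp19 and Adamts18 were above control by value in all 3 treated groups. So were others, among them Mmp2, Mmp3, Mmp13, Mmp23, Mmp25 and Adamts14, and the 3 comparisons share their control tumors. How many of all genes did so was not counted.

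**Figure D4:**
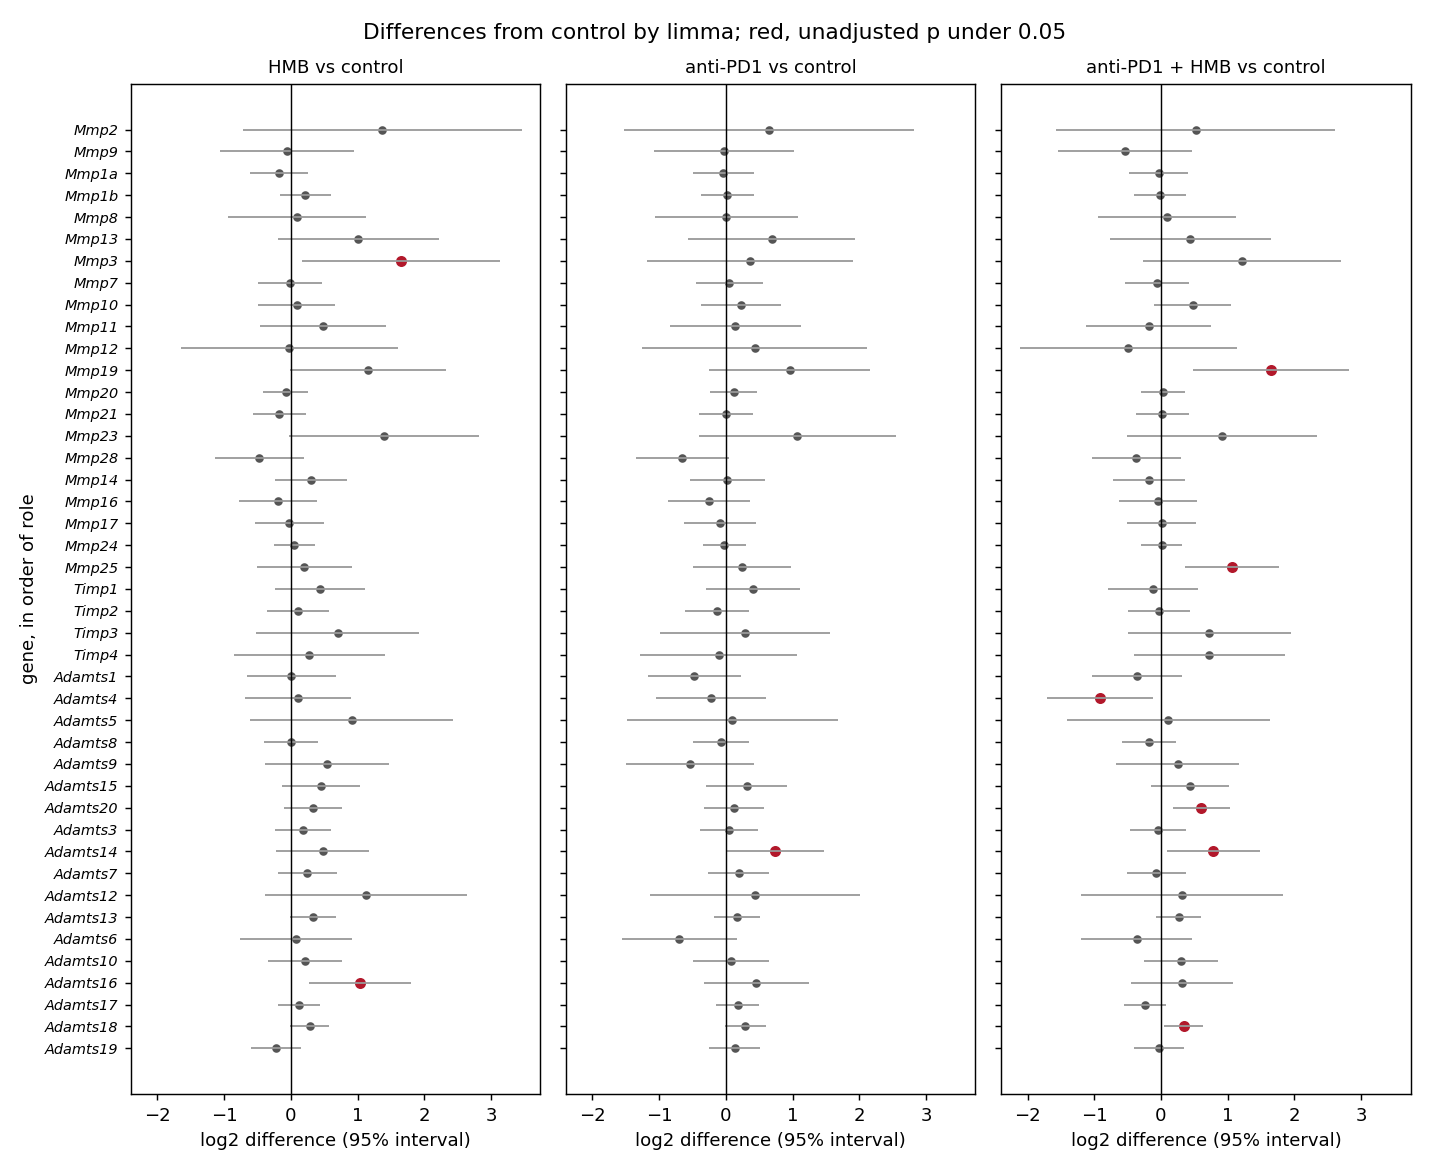
Log2 difference from control with its 95% interval (limma) for the 43 genes under HMB, anti-PD1 and anti-PD1 + HMB. Red points have an unadjusted p under 0.05 (2, 1 and 6 genes), and no gene passed after adjustment over 19505 genes.

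Adding HMB to anti-PD1 was compared with anti-PD1 alone. No gene of the 43 and none of all genes (0%) passed an adjusted p of 0.05 in limma, and 3 of 43 (6.98%) had an unadjusted p under 0.05, against 4.18% of all genes (1.85% higher, 2.33% lower). Adamts17 differed by -0.41 ± 0.15 (SE), Mmp25 by 0.83 ± 0.34 and Adamts20 by 0.48 ± 0.21, each at a limma adjusted p of 0.999. Mmp25 ran from 5.35 to 6.15 with anti-PD1 and 5.62 to 7.20 with both agents. Without tumor 7, Adamts20 differed by 0.30. The next by p were Adamts4 (-0.68), Adamts9 (0.79), which cuts versican, and Timp1 (-0.52), and without tumor 7 these were -0.36, 0.49 and -0.27. Mmp12 differed by -0.92 (95% interval -2.55 to 0.70, and -0.54 without anti-PD1 2) and Mmp3 by 0.85 (-0.64 to 2.34, and 0.39 without anti-PD1 3). Positive differences numbered 24 of 43, against 48% of all genes, and 21 without tumor 7, against 49.7%. No gene had groups that did not overlap, against 0.0513% of all genes. The count of 3 became 1 without anti-PD1 6, where the share of all genes was 4.11%.

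Adding anti-PD1 to HMB gave the lowest adjusted p for any of the 43 genes, and it did not pass. With 0 called in limma among the 43 and 0% of all genes, 3 of 43 had an unadjusted p under 0.05, against 8.8% of all genes (4.71% higher, 4.1% lower). Adamts4 differed by -1.02 ± 0.37 (SE; limma adjusted p = 0.375), from a median of 8.75 to 7.83, and by -0.70 without tumor 7. Mmp25 differed by 0.87 ± 0.33 (limma adjusted p = 0.418) and Adamts17 by -0.36 ± 0.15 (limma adjusted p = 0.466). Adamts16 (-0.73, and -0.48 without HMB 4), Mmp14 (-0.48) and Timp1 (-0.55) came next, and without tumor 7 the last 2 were -0.27 and -0.30. The signs ran against those of HMB over control: 17 of 43 differences were positive (39.5%, against 48.4% of all genes) and 13 of 18 Adamts genes were negative, with a median of -0.15, but both comparisons share the 7 HMB tumors. Many of these Adamts genes were dim, as named above for HMB against control. No gene had groups that did not overlap, against 0.0718% of all genes. The count of 3 became 6 without HMB 3 or anti-PD1 + HMB 5, and 5 without anti-PD1 + HMB 1. The share of all genes was 8.43%, 8.76% and 10.2% in the same order.

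The interaction asked whether the effect of HMB differed with and without anti-PD1. None of the 43 genes and 0% of all genes passed an adjusted p of 0.05 in limma, and 3 of 43 had an unadjusted p under 0.05, against 5.57% of all genes (2.61% higher, 2.96% lower). All 3 were negative: Adamts17 (-0.53, limma adjusted p = 0.876), Adamts16 (-1.19, limma adjusted p = 0.884) and Timp1 (-0.96, limma adjusted p = 0.889). Timp1 means were 11.70 ± 0.24 in control, 12.14 ± 0.54 with HMB, 12.11 ± 0.54 with anti-PD1 and 11.58 ± 0.91 with both, and without tumor 7 the interaction was -0.71. Mmp23 (-1.54), Mmp28 (0.76) and Adamts7 (-0.51) followed by p, and 14 of the 43 terms were positive, against 50.7% of all genes. The count of 3 became 1 without control 4, HMB 4, HMB 6 or anti-PD1 + HMB 2. The share of all genes was 5.38%, 4.96%, 5.54% and 5.21% in the same order. The F test of all 4 groups found 0 of 43 and 0% of all genes past an adjusted p of 0.05, and 3 of 43 at an unadjusted p under 0.05 (Mmp25, Adamts20 and Adamts4), against 7.7% of all genes. That count became 1 without control 1 or anti-PD1 + HMB 7, and 5 without HMB 3, HMB 4, HMB 7 or anti-PD1 3. Under those settings the share of all genes ran from 6.97% (without HMB 4) to 8.09% (without HMB 7).

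A further 68 genes linked to these enzymes were activators of the proenzymes, other inhibitors, ADAM proteases, ADAMTS-like proteins and substrates. None passed an adjusted p of 0.05 in any comparison. Among 26 measured substrates, 22 were higher by value with HMB than in control, where 47.5% of all genes were. At an unadjusted p under 0.05, 7 were higher and 1 was lower, against 3.14% and 3.79% of all genes, and without control 4 the 7 became 3. Lama3, a laminin chain, differed by 2.06 ± 0.63 (SE; limma adjusted p = 0.686) and by 1.36 without HMB 5, and Comp by 0.94 ± 0.33 (limma adjusted p = 0.686). Several of these substrates are collagens that also make up the fibroblast score. With both agents against HMB alone, 20 of the 26 were lower by value and 6 higher, where 48.4% of all genes were higher. There Lama3 differed by -2.11 ± 0.61 (limma adjusted p = 0.251) and Tgfbi by 0.84 ± 0.22 (limma adjusted p = 0.23).

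Among 14 activators, Plaur, the urokinase receptor, differed by 1.17 ± 0.36 between anti-PD1 and control (SE; limma adjusted p = 0.639). Furin, which cuts the proenzymes of the membrane-type Mmp and the ADAMTS enzymes, differed by -0.61 ± 0.19 between anti-PD1 + HMB and control (limma adjusted p = 0.534). Of the 14, 10 were lower by value in that comparison and 4 higher, where 46.9% of all genes were higher. At an unadjusted p under 0.05, 3 were lower, against 4.71% of all genes, and without tumor 7 these counts were 8 lower and 1. Adam28, a membrane protease of lymphocytes, differed from control by -0.52 with HMB, -0.46 with anti-PD1 and -0.50 with both. These 3 comparisons share their control tumors, and Adam28 passed an adjusted p of 0.05 in limma in none of them.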

How the data were processed

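The authors deposited a table of log2-scale values per probe set for 26 Clariom S arrays, labelled from total RNA of homogenized tumors. How they were normalized, with which software and on which build is not stated in the labels or methods. Base 2 was taken from the range of values (1.083 to 19.335). Probe sets were named by the platform annotation: 19572 of 28846 had 1 symbol and 0 had several. Of several probe sets of a gene (55 genes), that with the highest mean value was kept. Groups and tumor numbers came from the titles.

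Differences were fitted with limma 3.58.1 in R 4.3.3 (lmFit and eBayes, 4 groups, no covariate, 22 residual degrees of freedom before moderation) and adjusted by Benjamini-Hochberg over 19505 genes. Correlations used two-sided permutation tests with 100000 resamples (scipy 1.17.1). Of 10 pairs listed, 9 were measured; the pair with Adamts2 was not. Simulated data with known differences were run through the fit first. Precision is limited by the number of arrays.

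The text names, in each comparison, the 6 members with the smallest p, a list of well-known members, and the 2 linked genes with the smallest p. Others (Adamts12, Mmp8, Mmp11 among them) were named after their values were seen. The members and lists were chosen with earlier results of these data known. Same-numbered tumors did not deviate together (median correlation -0.014 over 37 pairs, 12 over 0.1), so numbers were not used as pairs. Nothing says that the tumors of a group were handled apart, beyond each being a separate sample. Alternatives were quantile normalization, a filter on dim genes (5 of the 43 and 4149 genes in all passed), the mean of probe sets, a variance trend, array weights, separate fits, the methods' t-test, the number as a block, and leaving out each tumor. Leaving out tumors with extreme fibroblast or B cell scores was added after seeing the data. Promoter sequences are from RefSeq (GRCm38.p6).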

Additional observations from a re-analysis of the deposited data

Results flagged for a closer look

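Within groups, 12 values of the 26 genes named by rule lay far from the other tumors of their group by Dixon's test at the 95% level, of 104 sets of a gene and a group, where chance would give about 5.2. Tumor 7 of the anti-PD1 + HMB group gave 5 of them: Timp4 at 8.53 (next 4.43), Mmp19 at 12.82 (next 10.25) and Adamts13 at 3.44 (next 2.74) as the highest, and Mmp13 at 6.59 (next 9.78) and Adamts4 at 5.67 (next 7.44) as the lowest. The same tumor had the highest B cell, T cell and adipocyte scores, and their part in these values was not tested.

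Control 4 was lowest in Mmp2 at 7.05 (next 11.72) and had the lowest fibroblast score, -3.98. HMB 4 was highest in Adamts14 at 6.84 and in Adamts20 at 3.94. HMB 2 was highest in Mmp9 at 7.46, and anti-PD1 4 was highest in Mmp9 at 8.07. Anti-PD1 2 was highest in Adamts16 at 5.03, and control 6 was highest in Adamts7 at 7.35.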

How the results depend on the processing

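No alternative called any of the 43 genes at an adjusted p of 0.05 in any comparison. Of 64 printed differences, 56 kept their sign under every alternative, and 2208 of 2243 alternative values in all had the main sign. The other 8 turned when single tumors were left out. Their ranges for HMB against control were -0.37 to 0.23 (Mmp9), -0.33 to 0.58 (Mmp12) and -0.24 to 0.18 (Adamts1). For anti-PD1 against control they were -0.28 to 1.02 (Mmp2) and -0.085 to 0.11 (Mmp14). For anti-PD1 + HMB against control they were -0.41 to 1.21 (Mmp2), -0.31 to 0.033 (Mmp14) and -0.31 to 0.14 (Timp1). Array weights turned Adamts1 with HMB (-0.042) and Mmp14 (0.012) and Timp1 (0.013) with both agents. The replicate block turned Mmp9 (0.049), Mmp12 (0.043) and Adamts1 (-0.046) with HMB and Timp1 (0.014) with both. Without the 2 tumors lowest in fibroblast genes, Mmp12 (0.038) and Adamts1 (-0.13) with HMB and Mmp2 with anti-PD1 (-0.28) turned, and without the 2 highest in B cell genes, Mmp14 (0.033) and Timp1 (0.14) with both. The 9 correlations kept their sign under quantile normalization, as deviations from group means and without 2 tumors. They also kept their side of a permutation p of 0.05 there, before any adjustment over the 9. Counts at an unadjusted p under 0.05 moved more. For HMB against control (2), the count was 4 with quantile normalization, 5 with array weights, 6 when only the compared groups were fitted, 5 by the methods' t-test and 5 without the 2 tumors highest in B cell genes. Over all genes the share was 7.22%, 7.54%, 7.61%, 6.78% and 9.16% in the same order. For anti-PD1 against control (1), the count was 3 with array weights, 3 with only the compared groups and 2 without those 2 tumors. Over all genes the share was 8.5%, 7.45% and 7.01%. For the interaction (3), the count was 1 with array weights and 1 without the 2 tumors lowest in fibroblast genes. Over all genes the share was 6.37% and 5.2%. With dim genes left out, which keeps 5 of the 43, the count was 1 for the interaction and 0 for the others. The share of all genes kept was then 5.5% for the interaction and 2.82% to 10.8% for the others. With the tumor number as a replicate block, the count was 4 for HMB against control, 2 for anti-PD1 against control, 1 for the combination against anti-PD1 and within 1.5 times for the rest. All genes then stood at 7.49% for HMB against control, 6.34% for anti-PD1 against control and 3.42% for the combination against anti-PD1. The block called 0 genes after adjustment, and 6 of 26 tumors correlated best with their own number. Leaving out each tumor in turn gave 1 to 6 (HMB against control), 0 to 2 (anti-PD1 against control), 4 to 8 (anti-PD1 + HMB against control), 1 to 4 (against anti-PD1), 2 to 6 (against HMB), 1 to 4 (interaction) and 1 to 5 (all 4 groups). In the same order, the share of all genes ran from 5.27% to 8.25%, 4.63% to 6.95%, 6.02% to 9.56% and 3.3% to 5.07%. Against HMB, for the interaction and for all 4 groups it ran from 7.37% to 10.7%, 4.77% to 6.41% and 6.65% to 8.74%. Apart from the filter on dim genes, the cause of these moves was not tested. Signal limits the dim genes: 20 of the 43 were below the negative-control median in every tumor.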
